A study of Mus musculus with 12 samples.

Results

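Annexins and S100 proteins are mostly calcium sensors of the cell periphery. In sorted fractions of the gastrulating mouse embryo, 10 of their genes were followed. The genes were Anxa1, Anxa2, Anxa3, Anxa4, Anxa5, Anxa6, S100a4, S100a6, S100a10 and S100a11, taken as every probe that carries their names in the scanner files. They had 15 of the 41174 probes of the array and were 10 of its 27548 gene names. The set was selected on the measured levels of Anxa5 and S100a6 over the fractions, so the levels of those genes are given as a description without a test, and tests were run on the other 8.

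The material was a single pool of whole CD-1 embryos of embryonic day 7.5, about 300 embryos from 25 litters. Flow sorting by a pair of surface antibodies gave 4 fractions of 3 samples, each of 3000 cells: cells with neither protein (Eng-Flk1-), with Flk1 alone (Eng-Flk1+), with Endoglin alone (Eng+Flk1-) and with both (Eng+Flk1+). Eng is Endoglin, a co-receptor for TGF-beta ligands, and Flk1, encoded by Kdr, is a receptor for VEGF that marks mesoderm on its way to blood and vessels. Messenger RNA was amplified through PCR of cDNA, labelled with Cy3 and read on 1 array per sample. All samples came from the same pool, and nothing says that the samples of a fraction are biologically separate, so p-values cover only the scatter among sorted samples, which may be technical. RNA was amplified from a fixed number of cells of mixed types, and fewer cells of a type cannot be told apart from less RNA per cell. No animal carried a transgene or received an agent, as far as the labels say.

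An annexin binds acidic membrane lipids when calcium is bound, through a folded core shared by the whole family, and its variable amino end decides its partners. S100 proteins are mostly small dimers that bind calcium at EF-hand sites, though not all of them bind it, and several dock on an annexin's amino end. S100a10 pairs with Anxa2 in a complex that anchors actin-linked membrane and, on endothelium, binds plasminogen and its activator. S100a11 pairs with Anxa1, and S100a6, also called calcyclin, binds Anxa2 and Anxa11.

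Levels are given as log2 of the background-subtracted signal relative to the array's 75th percentile, so that 0 is the level of a fairly bright probe and 1 unit is a doubling. Levels of different probes are not set against each other, since probes differ in brightness for the same amount of RNA. Sorting was reflected in the array values of Kdr, whose mean level was 1.11 in Eng-Flk1+ cells and 1.63 in Eng+Flk1+ cells. In the Flk1-negative fractions it averaged -6.20 (Eng-Flk1-) and -5.38 (Eng+Flk1-). Eng itself was highest in Eng+Flk1+, at 2.09, while its mean was 0.48 in Eng+Flk1- and 0.49 in Eng-Flk1+. Those last values were nearly equal, although the antibody separated these fractions.

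The 3 Eng-Flk1- arrays stood apart from the other 9, and every difference from that fraction is to be read beside this. On them 66.5 to 76.3% of probes were well above background, against 80.2 to 83.3% on the others. For 3924 pairs of probes of the same accession, the ratio of both probes on an array departed from its usual value by a median of 1.23 to 1.79 log2 on the Eng-Flk1- arrays and of 0.428 to 0.631 on the others. These pairs were picked as well above background on all 9 other arrays, with no such demand on the Eng-Flk1- arrays. Part of the larger disagreement may therefore come from the choice of pairs, and how much was not tested. All 3 Eng-Flk1- arrays lay on slide 1, with 1 Eng-Flk1+ array.

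**Figure D1:**
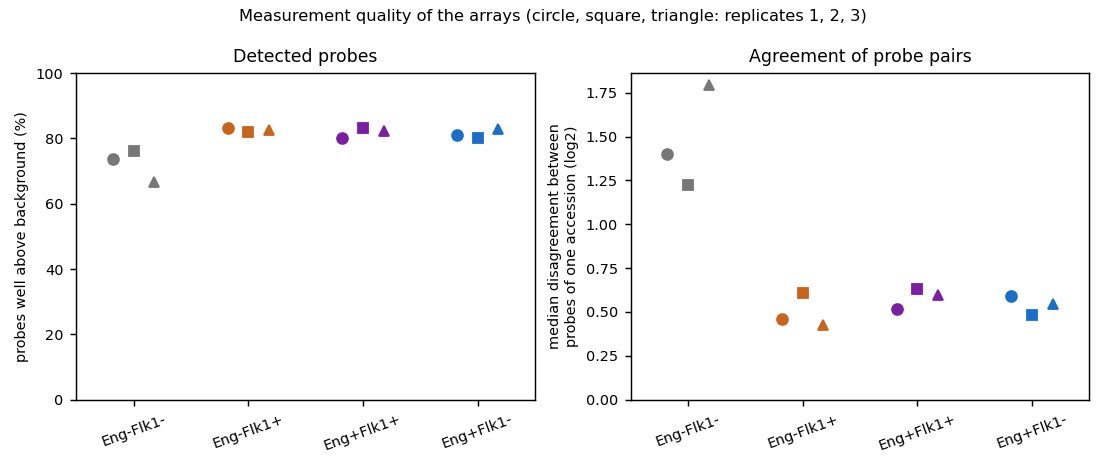
Left, the share of probes well above background on each array (%), and right, the median disagreement between probes of the same accession (log2), with 1 symbol per array and the 4 fractions on the horizontal axis. The 3 Eng-Flk1- arrays lie below the rest on the left, at 66.5 to 76.3%, and above them on the right, at 1.23 to 1.79. The probe pairs were picked as well above background on the arrays of the other fractions.

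The probes of Anxa2 and S100a6 are shown because the results below turn on them, and because the pair for Anxa2 measures different parts of a single mRNA. All are 60 bases long, sense strand, and lie in coding sequence. The first Anxa2 probe maps to chr9:69282203-69282977 of mm8, a span of 775 bases that includes an intron, and the second to chr9:69288867-69288926 further along the plus strand. The S100a6 probe maps to chr3:90700165-90700224 of mm8, on the plus strand.
Anxa2, A_51_P165342: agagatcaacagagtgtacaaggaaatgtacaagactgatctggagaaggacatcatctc
Anxa2, A_52_P62037: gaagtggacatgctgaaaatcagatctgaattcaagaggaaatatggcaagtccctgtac
S100a6, A_51_P281089: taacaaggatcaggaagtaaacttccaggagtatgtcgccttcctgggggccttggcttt

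Anxa5, which coats membranes that expose phosphatidylserine and is widely used to stain dying cells, was lowest in Eng-Flk1- cells. Its levels were -5.39, -5.66 and -4.01 on the Eng-Flk1- arrays and 0.31, -2.21 and 0.31 on the Eng-Flk1+ arrays. They were 1.85, 1.12 and 1.49 in Eng+Flk1+ and 2.16, 1.61 and 1.08 in Eng+Flk1-. All 3 arrays of Eng-Flk1- lay below the other 9, the Eng-Flk1+ arrays lay between, and both Endoglin-positive fractions overlapped. The group means were -5.02 ± 0.89, -0.53 ± 1.46, 1.49 ± 0.36 and 1.61 ± 0.54 in the same order (SD, n = 3 each). The mean level was higher than in Eng-Flk1- by 4.49 in Eng-Flk1+ cells, 6.51 in Eng+Flk1+ cells and 6.63 in Eng+Flk1- cells, and the difference between both Endoglin-positive fractions was -0.13. On the background correction that models background from the raw signal (normexp), the same differences from Eng-Flk1- were 2.01, 3.80 and 4.02.

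S100a6, a binder of Anxa2 and of the ubiquitin-pathway adaptor Cacybp, was also lowest in Eng-Flk1- and was highest in Eng+Flk1-. Its levels were -3.18, -4.06 and -2.51 on the Eng-Flk1- arrays and 0.54, -2.98 and 1.34 on the Eng-Flk1+ arrays. They were -0.05, 1.56 and 1.56 in Eng+Flk1+ and 2.81, 1.88 and 3.35 in Eng+Flk1-. This last fraction lay above all others, and 1 Eng-Flk1+ array, replicate 2, fell among the Eng-Flk1- arrays. The group means were -3.25 ± 0.78, -0.37 ± 2.30, 1.03 ± 0.93 and 2.68 ± 0.74 (SD, n = 3 each). Unlike Anxa5, S100a6 had arrays that did not overlap between both Endoglin-positive fractions, with a difference of -1.65 for Eng+Flk1+ against Eng+Flk1-. Whether this differs from the value of Anxa5 was not tested. With normexp, S100a6 was above Eng-Flk1- by 1.81 in Eng-Flk1+ cells, 2.95 in Eng+Flk1+ cells and 4.64 in Eng+Flk1- cells, against 2.88, 4.27 and 5.93 on the deposited signal.

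Replicate 2 of Eng-Flk1+ carried the low value of both genes, with -2.21 for Anxa5 and -2.98 for S100a6. Without that array the mean difference between Eng-Flk1+ and Eng-Flk1- became 5.33 for Anxa5 and 4.19 for S100a6, against 4.49 and 2.88 with it. The difference between Eng-Flk1+ and Eng+Flk1- became -1.30 for Anxa5 and -1.74 for S100a6, against -2.14 and -3.05. On the same array the probes of Anxa2 disagreed. A_52_P62037 was at 2.24, the highest of its fraction, and A_51_P165342 at -0.70, the lowest of its fraction. S100a10 was at 1.05, between the other arrays.

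**Figure D2:**
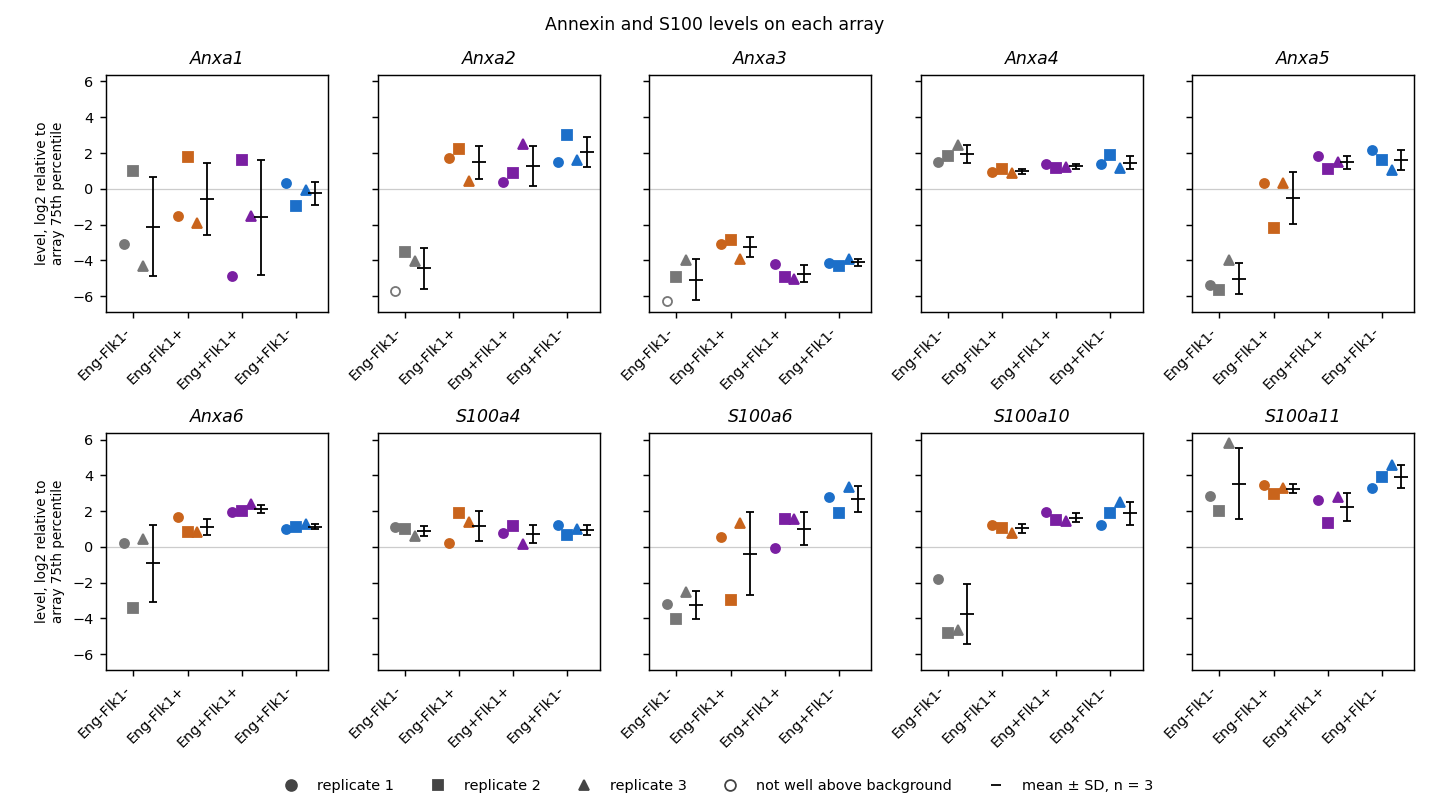
Level of each gene on each array (log2 relative to the array's 75th percentile), 1 panel per gene and 1 symbol per array, for the probe used in the tests, with the mean ± SD of each fraction (n = 3). Anxa2, Anxa5, S100a6 and S100a10 sit at -1.80 or lower on all Eng-Flk1- arrays, while Anxa4, S100a4 and S100a11 stay above 0 on every array.

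Anxa2, the partner of S100a10 and a link between membrane, actin and plasminogen activation, was low in Eng-Flk1- and at similar levels in the other fractions. By its brighter probe, A_52_P62037, levels were -5.73, -3.54 and -4.05 on the Eng-Flk1- arrays, of which 2 were well above background. They were 1.74, 2.24 and 0.45 in Eng-Flk1+ cells. With Endoglin they were 0.39, 0.90 and 2.50 on the Eng+Flk1+ arrays and 1.50, 3.04 and 1.63 on the Eng+Flk1- arrays. The Eng-Flk1- arrays lay below all others, and the other 3 fractions overlapped one another.

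The mean of Anxa2 rose from -4.44 ± 1.14 in Eng-Flk1- to 2.06 ± 0.85 in Eng+Flk1- cells, 1.48 ± 0.92 in Eng-Flk1+ cells and 1.27 ± 1.10 in Eng+Flk1+ cells (SD, n = 3 each). Fitted with limma over all 22726 genes tested, the difference was 6.50 ± 0.79 (SE) in Eng+Flk1-, a 90.3-fold rise with an adjusted p of 0.00418. It was 5.92 ± 0.79 in Eng-Flk1+ (60.5-fold, limma adjusted p = 0.0055) and 5.70 ± 0.79 in Eng+Flk1+ (52.2-fold, limma adjusted p = 0.00448). These sizes depend on the background correction: with normexp the differences were 4.34, 3.73 and 3.53 log2 in the same order (limma adjusted p = 0.0136, 0.0188 and 0.0182). Anxa2 entered the fit only through the fractions where it is high, so these p-values are no independent sign of a difference. Replicate 1 of Eng-Flk1- was not well above background, so the size of the folds is not settled.

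The other Anxa2 probe, A_51_P165342, had more scatter. It read -1.19, -8.00 and -6.24 on the Eng-Flk1- arrays, of which 1 was well above background. The gap between both probes ran from -4.54 to 4.46 log2 on those arrays and from -1.39 to 2.94 on the other 9. When each probe was tested on its own over 33146 probes, its difference from Eng-Flk1- was 6.74 ± 1.42 in Eng+Flk1- (limma adjusted p = 0.0413), 6.15 ± 1.42 in Eng+Flk1+ (limma adjusted p = 0.0462) and 5.35 ± 1.42 in Eng-Flk1+ (limma adjusted p = 0.0832). Since 2 of the 3 Eng-Flk1- arrays were not above background, the size of these differences is not settled and they are no separate support for the brighter probe.

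S100a10, the small partner of Anxa2 in their membrane complex, was likewise lowest in Eng-Flk1-. Its levels were -1.80, -4.79 and -4.64 in Eng-Flk1- and 1.25, 1.05 and 0.80 in Eng-Flk1+. They were 1.94, 1.52 and 1.46 in Eng+Flk1+ and 1.22, 1.91 and 2.49 in Eng+Flk1-. All arrays of the 3 fractions with a surface marker lay above all Eng-Flk1- arrays, and among those 3 fractions Eng+Flk1+ lay above Eng-Flk1+ without overlap while Eng+Flk1- overlapped both.

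S100a10 rose by 5.61 ± 0.73 in Eng+Flk1- (49.0-fold, limma adjusted p = 0.00548) and by 5.38 ± 0.73 in Eng+Flk1+ (41.6-fold, limma adjusted p = 0.00413). In Eng-Flk1+ it rose by 4.78 ± 0.73 (27.4-fold, limma adjusted p = 0.00936). With normexp the differences were smaller, at 3.94, 3.71 and 3.14 log2 in the same order (limma adjusted p = 0.00375, 0.00184 and 0.00717). Leaving out replicate 1 of Eng-Flk1-, its least low array, raised the differences to 6.58, 6.35 and 5.75 in Eng+Flk1-, Eng+Flk1+ and Eng-Flk1+. Leaving out replicate 2 of Eng-Flk1- gave 5.09, 4.86 and 4.25, and the calls held without any single array, up to a limma adjusted p of 0.0472. For Anxa2, leaving out replicate 1 of Eng-Flk1- gave 5.85, 5.06 and 5.27, and leaving out replicate 2 gave 6.94, 6.15 and 6.37. With only the compared groups in the fit, S100a10 did not pass, with limma adjusted p of 0.0752, 0.0631 and 0.0741 in Eng+Flk1-, Eng+Flk1+ and Eng-Flk1+.

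In each case 2 of the 8 tested members, Anxa2 and S100a10, rose against Eng-Flk1-, and none fell. Anxa2 entered the fit only through the fractions where it is high, while S100a10 was well above background on every array. Of all genes tested, 1.46% passed in Eng+Flk1- against Eng-Flk1- (1.24% higher, 0.224% lower), 1.91% in Eng-Flk1+ (1.64% higher, 0.273% lower) and 2.38% in Eng+Flk1+ (1.98% higher, 0.409% lower). The median difference of the 8 members was 1.42, 1.68 and 0.43 in that order, beside medians of -0.06, -0.13 and -0.06 over all genes. Arrays of 3, 4 and 3 of the 8 members lay wholly above those of Eng-Flk1-, where 8.94, 9.42 and 8.84% of all genes did so.

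With the slide as a block, the calls of Anxa2 and S100a10 were lost, and over all genes there were 0, 16 and 0 calls, or 0%, 0.0704% and 0%, in Eng+Flk1-, Eng-Flk1+ and Eng+Flk1+. The blocked differences of Anxa2 were 5.03, 6.18 and 5.47 in the same order, with limma adjusted p of 0.978, 0.112 and 0.484. For S100a10 they were 6.21, 4.99 and 5.79, with limma adjusted p of 0.813, 0.224 and 0.483. Slide 1 holds the single within-slide comparison with Eng-Flk1-, of 1 Eng-Flk1+ array against the 3 Eng-Flk1- arrays. There the difference was 6.18 for Anxa2, 4.99 for S100a10, 5.33 for Anxa5 and 3.79 for S100a6. For both Endoglin-positive fractions no slide held arrays of Eng-Flk1- as well.

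**Figure D3:**
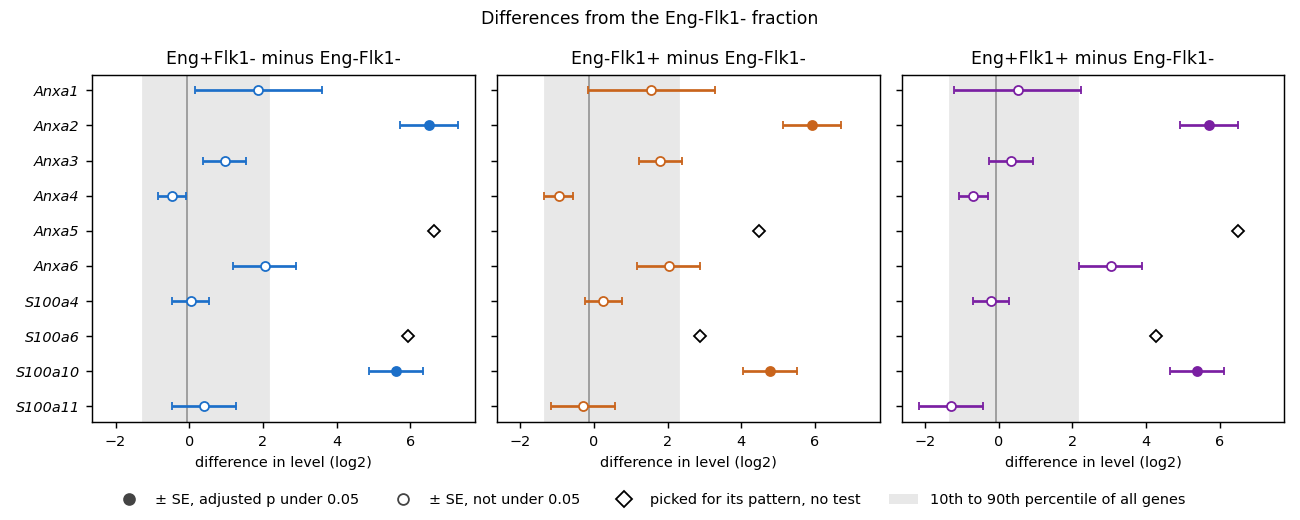
Difference in level from Eng-Flk1- (log2) for each gene in the 3 other fractions, with the standard error for the 8 tested genes, filled where the limma adjusted p was under 0.05. Anxa2 and S100a10 lie at 4.78 to 6.50 in all panels, Anxa5 and S100a6 (diamonds, not tested) at 2.88 to 6.63, and the grey band covers the 10th to the 90th percentile of all genes around their median (line).

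Anxa6, an annexin with a duplicated core that organises membrane and actin, was higher in the 3 other fractions by 2.03 to 3.04 log2 and did not pass the test. By its brighter probe, A_51_P231979, levels were 0.23, -3.42 and 0.43 in Eng-Flk1- and 1.65, 0.84 and 0.84 in Eng-Flk1+. They were 1.96, 2.00 and 2.41 in Eng+Flk1+ and 1.00, 1.10 and 1.28 in Eng+Flk1-. No Eng-Flk1- array reached the other fractions, but replicate 2 was far below the others of its group. The difference was 3.04 ± 0.86 in Eng+Flk1+ (limma adjusted p = 0.112), 2.04 ± 0.86 in Eng+Flk1- (limma adjusted p = 0.31) and 2.03 ± 0.86 in Eng-Flk1+ (limma adjusted p = 0.256).

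The Eng+Flk1+ arrays of Anxa6 lay above those of every other fraction by this probe, and the difference of 1.01 ± 0.86 from Eng-Flk1+ did not pass (limma adjusted p = 0.999). Without replicate 2 of Eng-Flk1- the difference between Eng+Flk1+ and Eng-Flk1- was 1.79 and passed (limma adjusted p = 0.0469), while those of Eng+Flk1- and Eng-Flk1+ shrank to 0.79 and 0.78 and did not (limma adjusted p = 0.345 and 0.306). With slide as a random effect the difference between Eng+Flk1+ and Eng-Flk1- was 2.81 (limma adjusted p = 0.0193). The difference between Eng+Flk1- and Eng-Flk1- passed there as well (limma adjusted p = 0.0495). The estimated correlation within slides was negative there, at -0.194, so that fit makes no allowance for a shared slide effect. With the slide as a block no gene passed in Eng+Flk1+ or Eng+Flk1- against Eng-Flk1-. With the mean of both probes the Anxa6 difference between Eng+Flk1+ and Eng-Flk1- passed.

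The dimmer Anxa6 probe, A_52_P434670, showed a split by Flk1 that the brighter probe did not. Between Eng-Flk1+ and Eng+Flk1- the difference was 3.52 by the dimmer and -0.01 by the brighter probe, and neither passed. The dimmer probe was well above background on no Eng-Flk1- array, on 2 of 3 Eng+Flk1- arrays and on all Flk1-positive arrays. Its mean level was -7.18 ± 0.67 in Eng-Flk1- and -6.05 ± 1.40 in Eng+Flk1- (SD, n = 3 each). Among Flk1-positive cells it averaged -2.54 ± 1.74 without Endoglin and -2.25 ± 1.88 with it (SD, n = 3 each). The arrays of both Flk1-positive fractions lay above those of both Flk1-negative ones. As a lower bound, with each dim array raised to its lowest signal called well above background, it was at least 20.5-fold higher in Eng-Flk1+ and at least 25.0-fold higher in Eng+Flk1+ than in Eng-Flk1-. The limma adjusted p of this probe was 0.0593 and 0.0431 in those comparisons, but it entered the fit through the fractions where it is high, so these values are no independent sign of a difference.

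Anxa3, an annexin abundant in neutrophils, was dim throughout. By its brighter probe it ranged from -6.30 to -2.84 over the 12 arrays and was well above background on 11. Its mean was -5.07 ± 1.17 in Eng-Flk1- cells and -3.27 ± 0.56 in Eng-Flk1+ cells, and with Endoglin present it was -4.74 ± 0.46 in Flk1-positive and -4.11 ± 0.20 in Flk1-negative cells (SD, n = 3 each). The Eng-Flk1+ arrays lay just above those of every other fraction without overlap. The difference of 1.80 ± 0.59 from Eng-Flk1- did not pass (limma adjusted p = 0.168), nor did any other Anxa3 difference.

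The other Anxa3 probe, A_51_P430240, was well above background on 5 arrays, all of them Flk1-positive. With dim arrays raised as for Anxa6, it was 4.0-fold higher in Eng-Flk1+ than in Eng-Flk1- and 5.72-fold higher than in Eng+Flk1-. These folds are no strict lower bound either. Between Eng+Flk1+ and Eng-Flk1+ the probes disagreed in sign, with -1.46 by the brighter probe and 0.49 by the dimmer. Neither difference passed (limma adjusted p = 0.953 and 0.999).

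**Figure D4:**
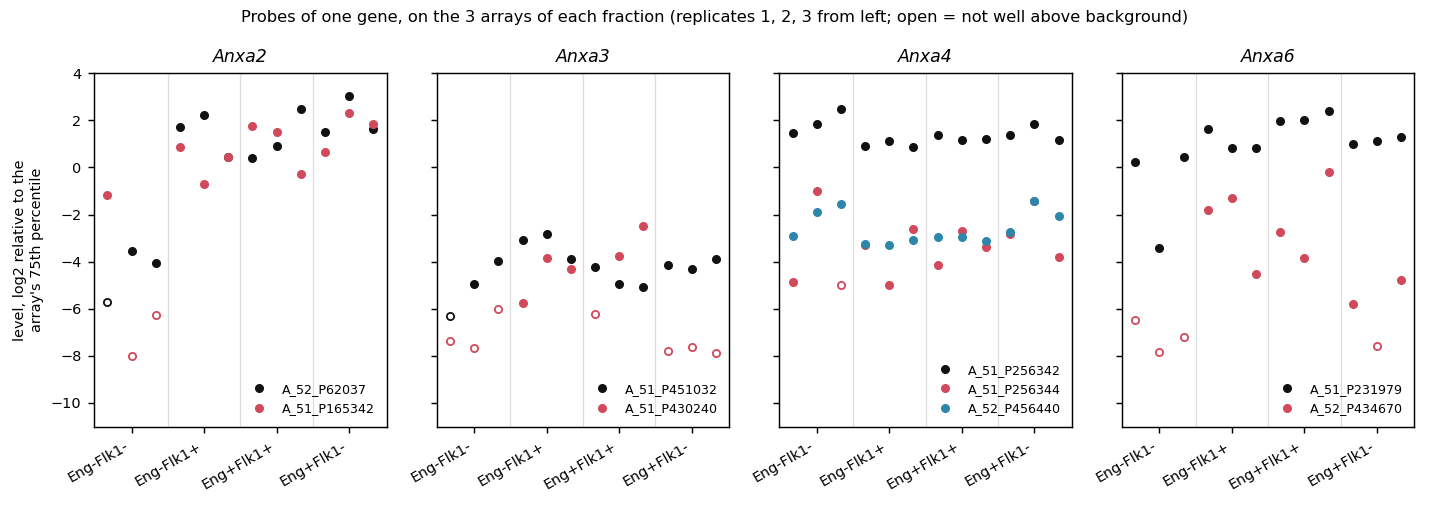
Level of each probe (log2 relative to the array's 75th percentile) of the 4 genes with several probes, with the 3 arrays of each fraction side by side and open symbols where the probe was not well above background. The Anxa2 probes lie within 2.94 log2 of each other on the 9 arrays of other fractions while their gap runs from -4.54 to 4.46 on the Eng-Flk1- arrays, and the dimmer Anxa6 probe is highest on the 6 Flk1-positive arrays.

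Anxa4, an annexin of secretory epithelia, and S100a4, a binder of non-muscle myosin that is known from motile mesenchymal cells, did not pass in any comparison. By its brightest probe, A_51_P256342, Anxa4 lay between 0.89 and 2.47 on all arrays, with means of 1.93 ± 0.50 in Eng-Flk1- cells and 0.97 ± 0.12 in Eng-Flk1+ cells, and of 1.25 ± 0.12 (Flk1-positive) and 1.46 ± 0.36 (Flk1-negative) where Endoglin was present (SD, n = 3 each). By that probe it was the single tested member whose Eng-Flk1- arrays lay above those of another fraction, with differences of -0.96 for Eng-Flk1+ and -0.68 for Eng+Flk1+ against Eng-Flk1-. Neither difference passed (limma adjusted p = 0.244 and 0.437), and 12.7 and 9.19% of all genes showed such a separation. Its other probes lay lower, A_52_P456440 from -3.31 to -1.41, with the same separations, and A_51_P256344 from -5.0 to -0.98, whose Eng-Flk1- arrays overlapped those of every other fraction. S100a4 lay between 0.16 and 1.88, and all its fractions overlapped in every comparison.

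S100a11, the partner of Anxa1, was lowest in Eng+Flk1+. Its levels were 2.64, 1.33 and 2.77 there and 3.30, 3.93 and 4.58 in Eng+Flk1-. They were 3.47, 2.98 and 3.29 in Eng-Flk1+ and 2.84, 1.99 and 5.78 in Eng-Flk1-. Arrays of Eng+Flk1+ lay below those of Eng-Flk1+ and Eng+Flk1-, with mean differences of -1.0 and -1.69, and the Eng-Flk1- arrays ran from 1.99 to 5.78 and overlapped every other fraction. None of its differences passed (limma adjusted p = 0.999 and 0.864 for those named).

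Anxa1, an anti-inflammatory annexin induced by glucocorticoids, varied widely inside fractions, from -4.86 to 1.59 among the Eng+Flk1+ arrays alone. Its levels were -3.07, 1.02 and -4.30 in Eng-Flk1- cells, -1.51, 1.77 and -1.93 in Eng-Flk1+ cells, and -4.86, 1.59 and -1.52 in Eng+Flk1+ cells. In Eng+Flk1- they were 0.30, -0.96 and -0.06. A single array, replicate 2 each time, stood more than 3 log2 above the others in each of the first 3 fractions. In Eng+Flk1- the arrays were close and replicate 2 was the lowest. Whether the shared replicate number matters was not tested. With a standard error of 1.72 none of its differences passed, the lowest limma adjusted p being 0.654 against Eng-Flk1-.

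Among the fractions that carried a surface marker, no tested member passed. Of the 8 tested members 0 passed in Eng+Flk1+ against Eng-Flk1+, 0 in Eng+Flk1+ against Eng+Flk1- and 0 in Eng-Flk1+ against Eng+Flk1- by limma, with 1, 0 and 0 at an unadjusted p under 0.05. Over all genes 0.0264, 0.268 and 0.101% passed. The medians of the 8 members were -0.34, -0.43 and -0.40, and those of all genes 0.10, -0.02 and -0.09. With the Eng-Flk1- arrays left out of the fit the counts of members were 0, 0 and 0 as well, beside 0.0572, 0.568 and 0.326% of all genes. The standard errors of 0.39 to 1.72 set how small a difference the arrays could have shown. Separations without overlap among these fractions are described above without the share of all genes that showed them. Against Eng-Flk1-, arrays of 8.84 to 9.42% of all genes lay wholly above, so a separation alone is no sign of a difference.

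The interaction asks whether Endoglin goes with another difference in Flk1-positive than in Flk1-negative cells, as the difference between Eng+Flk1+ and Eng-Flk1+ minus that between Eng+Flk1- and Eng-Flk1-. For Anxa2 it was -6.71 ± 1.11 (limma adjusted p = 0.0424), since the level rose by 6.50 with Endoglin among Flk1-negative cells and differed by -0.21 among Flk1-positive cells. Of the 8 members 1 passed, against 0.273% of all genes (0.26% lower). Since Anxa2 entered the fit only through the fractions where it is high, its call is no independent sign of an interaction. For S100a10 the interaction was -5.01 ± 1.03 and did not pass (limma adjusted p = 0.0886), and for the genes described without a test it was -4.62 in Anxa5 and -4.53 in S100a6.

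The Anxa2 interaction did not pass when any array of Eng-Flk1+ or Eng+Flk1-, or replicate 1 or 2 of Eng+Flk1+, was left out, with limma adjusted p of 0.0624 to 0.111 and values of -7.22 to -6.22. By the other Anxa2 probe it was -5.94 ± 2.01 (limma adjusted p = 0.286), and with the slide as a block -5.73 (limma adjusted p = 0.494). Without replicate 1 of Eng-Flk1- the interaction of S100a10 was -5.98 and passed (limma adjusted p = 0.0073).

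Several lists of marker genes for other tissues of the embryo also differed between Eng-Flk1- and the other fractions. Summed over 10 visceral endoderm genes, the signal relative to the array's 75th percentile was 100.4 to 313 in Eng-Flk1- and 4.29 to 13.3 in the other fractions, and 6, 5 and 6 of 9 tested genes fell in Eng+Flk1-, Eng-Flk1+ and Eng+Flk1+ (limma). Afp, which defines that tissue, was not well above background on any Eng-Flk1- array. The sum of 6 epiblast genes was 30.9 to 99.3 in Eng-Flk1- against 7.44 to 22.8 elsewhere, and 0, 1 and 1 of the 6 fell. For 6 primitive erythroid genes it was 23.7 to 40.6 against 1.22 to 15.4, and 0, 1 and 1 fell. Some genes of both lists went against their sum. In Eng-Flk1- and Eng+Flk1- the means were -2.63 and -1.34 for Gata1 and -2.39 and 1.22 for Klf1. They were 1.32 and 2.23 for Utf1 and -0.80 and 0.90 for Tdgf1, both epiblast genes. The other genes of both lists had higher means in Eng-Flk1- than in Eng+Flk1-. The sum of 5 allantois and extraembryonic mesoderm genes was instead lower in Eng-Flk1-, at 0.199 to 0.582 there and 3.84 to 18.0 elsewhere, with 2, 3 and 2 of 5 genes higher. The sum of 8 endothelial genes was 32.5 to 52.2 in Eng+Flk1+ and 1.33 to 13.4 elsewhere, with 0, 2 and 6 of 8 higher. That of 8 trophoblast genes was 20.5 to 25.8 in Eng+Flk1- and 3.70 to 10.4 elsewhere, with 3, 0 and 0 of 8 higher and 0, 0 and 1 lower. Of 5 nascent mesoderm genes 0 passed in any comparison by limma, with 0, 1 and 0 at an unadjusted p under 0.05 against Eng-Flk1-, and their sum was 18.3 to 34.9 in Eng-Flk1- and 12.6 to 26.0 elsewhere. All these sums add linear levels over different probes, so the brightest probes of a list weigh most. In Eng-Flk1- the mean log2 level of Fgf8 was 4.48, while T, Mesp1, Mixl1 and Tbx6 had means of -1.57, -3.42, -3.89 and -2.25. Among the visceral endoderm genes Apoc2 was brightest there, at 6.55. The part of these cell types in the levels of Anxa2, Anxa5, S100a6 and S100a10 was not tested.

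The rest of both families and their partners were measured in 5 lists of 42 genes, of which 40 could be tested. In Eng+Flk1-, Eng-Flk1+ and Eng+Flk1+ against Eng-Flk1-, 1, 0 and 1 of the 40 rose and 0 fell by limma, with 10, 6 and 4 at an unadjusted p under 0.05. Over all genes 1.24, 1.64 and 1.98% rose, so that these counts are near the background and say nothing particular of the lists. Their median differences were 0.42, 0.11 and -0.08. None passed in the other comparisons or in the interaction, where 2, 8, 4 and 8 reached an unadjusted p under 0.05.

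The genes behind these calls were S100a7a and Dysf. S100a7a, the mouse counterpart of the skin S100 protein psoriasin, had its highest level in Eng+Flk1-. Its mean level was -6.76 ± 1.14 in Eng-Flk1-, where no array was well above background, and -2.82 ± 0.68 in Eng+Flk1-, where all 3 were (SD, n = 3 each). With dim arrays raised as for Anxa6, it was 12.8-fold higher there, which is no strict lower bound. The measured difference passed (limma adjusted p = 0.0497). The gene passed the filter on dim probes only through Eng+Flk1-, so its call is no independent sign of a difference. Its means in Eng-Flk1+ and Eng+Flk1+ were -6.22 and -4.44. Dysf, dysferlin, which seals torn membranes together with annexins, rose in Eng+Flk1+ by 5.68 ± 1.05 (limma adjusted p = 0.0205), from -3.44 ± 1.31 to 2.24 ± 0.32 (SD, n = 3 each). In Eng-Flk1+ and Eng+Flk1- its mean levels were -0.74 and -2.86.

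Of the other annexins, Anxa7, Anxa8, Anxa9, Anxa10, Anxa11 and Anxa13, 0 of 6 passed in any comparison by limma, and the medians against Eng-Flk1- were 1.08 for Eng+Flk1-, -0.33 for Eng-Flk1+ and 0.38 for Eng+Flk1+. With 2, 2 and 1 at an unadjusted p under 0.05, the nearest was Anxa10, with a difference of -1.31 ± 0.42 in Eng-Flk1+ (limma adjusted p = 0.157). Anxa7 was higher by 2.49 ± 0.86 in Eng+Flk1- (limma adjusted p = 0.22). S100a13, which helps to release growth factors that lack a signal peptide, was higher by 3.30 ± 0.97 in Eng+Flk1- (limma adjusted p = 0.149). Ahnak, a giant scaffold bound by the Anxa2 and S100a10 complex, was higher by 2.52 ± 0.59 in Eng+Flk1- (limma adjusted p = 0.0711). Of the 3 calmodulins and of 7 genes of plasminogen activation, 0 passed in any comparison (limma).

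Most S100 genes lie in a cluster on chromosome 3, so that neighbours can be compared. In the RefSeq order S100a4 and S100a6 are separated by 1 protein-coding gene, S100a5, and S100a11 and S100a10 by 0. S100a6 was 5.93 log2 higher in Eng+Flk1- than in Eng-Flk1-, while S100a4 differed by 0.03 ± 0.50 (limma adjusted p = 0.982). The next S100 gene on the other side of S100a6 is S100a7a, which was also higher in Eng+Flk1-, 12.8-fold with dim arrays raised as given above. S100a10 rose by 5.61 beside S100a11, which differed by 0.40 ± 0.86 (limma adjusted p = 0.864). Between S100a6 and S100a11 stand 59 protein-coding genes. The difference between neighbours was not itself tested.

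**Figure D5:**
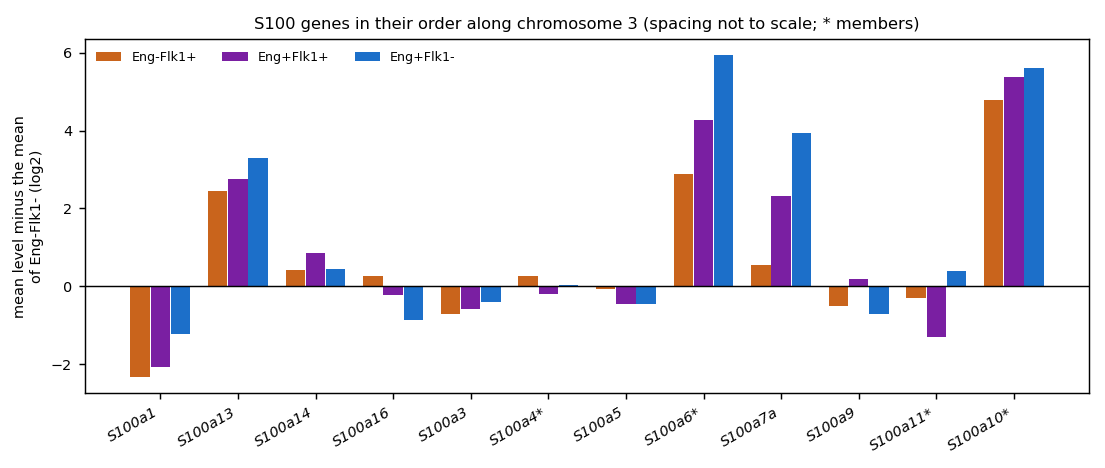
Mean level of each S100 gene of the chromosome 3 cluster in 3 fractions minus its mean in Eng-Flk1- (log2), in RefSeq gene order and not to scale, for genes that passed the filter on dim probes. S100a6 and S100a10 stand at 2.88 to 5.93, S100a4, S100a5 and S100a11 between -1.29 and 0.40, and S100a7a, not above background in Eng-Flk1-, at 0.54 to 3.94.

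The promoters of Anxa2, Anxa5 and S100a6 are shown because these genes share their low fraction, with the 250 bases upstream of the RefSeq start on GRCm38.p6. Capitals mark the TATA box TATAAA, the GC box GGGCGG and the AP-1 site TGANTCA, searched on both strands. Of the 10 members 7 had an entry. The windows are chr9:69453433-69453682 on the plus strand, chr3:36475888-36476137 on the minus strand and chr3:90612644-90612893 on the plus strand, in that order.
Anxa2: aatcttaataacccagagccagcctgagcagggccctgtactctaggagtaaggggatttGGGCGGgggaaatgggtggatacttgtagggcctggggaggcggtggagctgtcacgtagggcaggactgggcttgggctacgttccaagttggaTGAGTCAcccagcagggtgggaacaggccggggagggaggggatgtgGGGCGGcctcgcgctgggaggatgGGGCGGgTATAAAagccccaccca
Anxa5: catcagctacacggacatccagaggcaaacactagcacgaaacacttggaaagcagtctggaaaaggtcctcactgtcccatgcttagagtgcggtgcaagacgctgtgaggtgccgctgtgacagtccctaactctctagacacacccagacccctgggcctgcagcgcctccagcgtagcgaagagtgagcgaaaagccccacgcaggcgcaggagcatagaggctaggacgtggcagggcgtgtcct
S100a6: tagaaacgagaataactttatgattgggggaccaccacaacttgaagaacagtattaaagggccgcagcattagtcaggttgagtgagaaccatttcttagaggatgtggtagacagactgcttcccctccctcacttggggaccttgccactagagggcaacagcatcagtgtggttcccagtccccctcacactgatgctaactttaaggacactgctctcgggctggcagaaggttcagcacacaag

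The Anxa2 window holds 1 TATA box, 3 GC boxes and 1 AP-1 site, and the windows of Anxa5 and S100a6 hold none of these letters. Over 32851 promoters of the same length, 12.4% hold the TATA letters, 32.7% the GC box and 6.7% the AP-1 site. S100a11, none of whose differences passed, has 3 GC boxes and 2 AP-1 sites.

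Likeness of pattern was measured as the root mean square difference between genes over the 12 arrays, after centring each gene on its own mean, for 17456 genes. The genes nearest to Anxa5 were Armc8 (0.852 log2), Itgb1bp1 (0.868), Laptm5 (1.13), S100a6 (1.15) and Ctdp1 (1.20), where the SD of Anxa5 itself over the arrays was 2.91. Nearest to S100a6 were Itgb1bp1 (0.908), Rnaset2b (1.01), Laptm5 (1.04), Arhgef39 (1.09) and Arl14ep (1.09). Itgb1bp1 encodes a protein that binds the tail of an integrin, and Laptm5 a lysosomal membrane protein of blood cells. Both stood in each list.

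Among the members, Anxa2 and S100a10 differed by 1.44 log2. There were 26 genes nearer to Anxa2 than S100a10 was, and 121 nearer to S100a10 than Anxa2 was. Of these, Anxa5 differed from S100a10 by 1.32. Anxa5 and S100a6 differed by 1.15. The set was selected on the patterns of Anxa5 and S100a6, so their likeness supports nothing. The points share 12 arrays in which the Eng-Flk1- arrays are low for all 4 genes. Anxa1 and its partner S100a11 were not near each other, at 2.75 log2, and 15597 of 17456 genes were nearer to Anxa1.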

How the data were processed

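Per the file headers, signals were extracted from the 1-colour Agilent scans with Feature Extraction 10.5.1.1, and the deposited intensity of each spot is background-subtracted and detrended; probe positions are on mm8. Per the deposited flags (other values of 0 or 1), control spots were dropped and outlier spots, 85 to 161 per array, set missing. No spot was saturated. The authors' second table holds intensity divided by each array's median, per the file header; per the labels, GeneSpring GX was used, with settings not given in the sources used here.

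From the intensities, log2 values minus each array's 75th percentile were computed, spots of a probe averaged, and the probe with the highest mean kept for each gene. A gene was tested if its probe exceeded background, by the scanner's flag, on each array of some fraction (22726 genes), and all 10 members were among them. A limma 3.58.1 fit (R 4.3.3) to all 4 fractions, without covariates, gave 7 comparisons, with Benjamini-Hochberg adjustment over all genes tested and a threshold of 0.05. The code was tested on simulated data. The precision is limited by 3 arrays per fraction.

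The members and gene lists were chosen with earlier results of these data known. The genes named are all members with each probe, Eng and Kdr, from each list up to 4 genes with the lowest p and all that passed, and the 5 genes nearest to Anxa5 and to S100a6 in pattern; of the genes with the lowest p, those whose values add to a group are given. The alternatives were another background correction, quantile normalization, the authors' table, other filters, slide and replicate blocks, array weights, an intensity trend, other probe rules, and leaving out arrays. Protein sequences were not used here.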

Additional observations from a re-analysis of the deposited data

Results flagged for a closer look

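The difference of Anxa2 that goes with Endoglin was unlike in Flk1-negative and Flk1-positive cells by the test of the difference itself. The interaction was -6.71 log2 (limma adjusted p = 0.0424, n = 3 arrays per fraction), with 6.50 among Flk1-negative and -0.21 among Flk1-positive cells. All 3 Eng+Flk1- arrays lay above all 3 Eng-Flk1- arrays, while Eng+Flk1+ and Eng-Flk1+ overlapped. Over the alternatives the limma adjusted p ran from 0.0157 to 0.494, and 16 of 24 alternatives did not pass. The Eng-Flk1- arrays, which carry this difference, were those with fewer detected probes and larger disagreement between probes, whose part in the result was not tested. Anxa2 entered the fit only through the other fractions, where it is high, so its call is no independent sign of an interaction.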

How the results depend on the processing

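The count of 2 of 8 members higher than in Eng-Flk1- held in all 3 comparisons under most alternatives. It was 0, 0 and 0 with the slide as a block, and 1, 1 and 1 both with the filter that requires every array to be well above background, which leaves Anxa2 out of the test, and with only the compared groups in the fit. The count was 3, 2 and 3 with slide as a random effect, and 2, 2 and 3 with the mean of all probes. Leaving out each array in turn gave 2 to 2, 2 to 2 and 2 to 3. The 3 comparisons without Eng-Flk1- stayed at 0 in all alternatives run. The interaction count of 1 became 0 with normexp, quantile normalization, the authors' table, no filter, the filter on every array, the slide block and array weights, and 0 to 2 when single arrays were left out. The Anxa3 difference between Eng+Flk1+ and Eng-Flk1+ reversed to 0.49, and its interaction to 1.24, by its other probe, an alternative added after seeing the data. With each probe tested on its own, members with a call numbered 2, 2 and 3 against Eng-Flk1- (Eng+Flk1-, Eng-Flk1+, Eng+Flk1+), 0, 0 and 0 among the other fractions and 1 in the interaction.

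The labels do not say whether samples with the same replicate number belong together. The correlations of deviations between same-numbered samples ran from -0.09 to 0.13 over 18 pairs. No pairs with different numbers were set beside them, so these values do not settle it. With the replicate block the counts against Eng-Flk1- were 2, 2 and 2, and the interaction count was 0. Of the single-gene values, 614 kept their direction and side of the threshold, 26 no longer passed, 6 passed instead, 6 moved and 2 reversed. The authors' table shifts the median of all genes by -0.57 to -0.61 in the comparisons with Eng-Flk1- and by 0.58 in the interaction. Normexp shifts it by -0.19 to -0.22 and 0.23, and quantile normalization by 0.11 in the interaction. A shift of the median does not give the change of a single gene. With normexp the difference of Anxa2 between Eng+Flk1- and Eng-Flk1- went from 6.50 to 4.34, and that of Anxa5 from 6.63 to 4.02. Where not stated, the cause of a lost call was not tested. The fit without the Eng-Flk1- arrays can give no value for comparisons that need them.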
